A study of Mus musculus with 12 samples.

Results

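The cytosolic heat shock proteins are a group of 10 chaperones and co-chaperones, and the platform's annotation gave them 18 of the 23863 deposited probes. Every deposited probe whose gene symbol is Hspb1, Hspb8, Cryab, Bag3, Hspa1a, Hspa1b, Hspa8, Hsph1, Dnajb1 or Hsp90aa1 was taken, and all 10 genes were measured. The list of genes was itself chosen with earlier results of these data known. Hspa1a, Hspa8 and Hsp90aa1 had 3 probes each, Hspb8 and Hspa1b had 2 each, and the other members had 1. Kidney RNA was taken from 12 mice aged 15 weeks, labelled C57BL/6 and bred by crossing backcrossed lines with each other. The study places this age at an early stage of cystic disease, but it never saw cysts in control mice. The RNA was measured on a bead array, the Illumina MouseWG-6 v2 BeadChip, which reads RNA with bead-bound probes. The groups were 4 controls, 4 mice homozygous for conditionally inactivated Fh1 alleles (Fh1-/-) and 4 mice homozygous for such alleles of both Fh1 and Hif-1α (Fh1-/-Hif-1α-/-). Fh1 encodes the Krebs cycle enzyme fumarate hydratase, and Hif-1α is a subunit of the hypoxia-inducible transcription factor. In both knockout groups Cre recombinase was driven by Ksp-Cre, under the promoter of a cadherin of kidney tubules, so that other cells of the kidney keep both genes. Controls were littermates that had conditional alleles but no Ksp-Cre, or Ksp-Cre with a wild-type allele, and the labels do not say which control array is which. The labels call the tissue of all 12 arrays cysts, controls included, whereas the study's text speaks of kidneys. They name no sex.

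Heat shock proteins bind proteins that have lost their fold. The small ones (Hspb1, Hspb8 and Cryab) hold unfolded chains without using ATP. The Hsp70 proteins refold these chains in cycles of ATP hydrolysis that J-domain proteins such as Dnajb1 start and exchange factors such as Hsph1 and Bag3 end, and Hsp90 finishes the folding of many kinases and receptors. Most of the inducible members share a switch, heat shock factor 1, which binds repeats of a short inverted motif in their promoters when unfolded proteins accumulate. In the kidney, Hsp70 and the small heat shock proteins are also known from the medulla, where cells face high salt and urea, and from tubules injured by lack of blood flow.

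Values are log2 normalized signals, so that 1 unit is a doubling. The members' signals were compared between groups with limma, a linear model that shares the estimate of spread across probes, and p-values were adjusted over all probes by the Benjamini-Hochberg method. A probe was called at an adjusted p under 0.05. Which animals share a litter is not given, and p-values measure only the spread between the arrays of a group. On a whole-kidney array, fewer cells of a type and less RNA per cell cannot be told apart. The arrays of replicates 1 and 2 of every group differed from those of replicates 3 and 4 in their dimmest signals, with 1st percentiles of 7.456 to 7.537 and 7.339 to 7.398, and a principal component that held 18% of the variance parted these sets. Xist was high on 5 of the arrays, at 12.07 to 13.49 against 6.79 to 7.76 on the others. These were control replicate 4, Fh1-/- replicates 1 and 3 and Fh1-/-Hif-1α-/- replicates 2 and 3, so the groups were not balanced for it. Of the targeted genes, the brightest probe of Fh1 gave 14.25 ± 0.02 (SD over 4 arrays) in control kidneys, 14.12 ± 0.12 in Fh1-/- kidneys and 13.85 ± 0.17 in Fh1-/-Hif-1α-/- kidneys, with a difference from control of -0.14 (adjusted p = 0.45) and -0.40 (adjusted p = 0.014). The brightest probe of Hif1a was higher by 0.85 in Fh1-/-Hif-1α-/- than in control kidneys (adjusted p = 0.016). The dimmer Hif1a probe, at the 0.13 percentile of signal and so close to the arrays' floor, ran otherwise, with a mean of 7.17 over the controls, 8.14 without Fh1 and 6.98 without both genes, and differences from control of 0.97 (adjusted p = 0.046) and -0.19 (adjusted p = 0.65). The dimmer Fh1 probe gave -0.24 (adjusted p = 0.23) and -0.45 (adjusted p = 0.018). Whether these probes lie in the deleted exons is not given in the sources used here, so they do not check the labels. By quantitative PCR on the same mRNA, the study found Fh1 significantly reduced in both knockout groups and Hif-1α in Fh1-/-Hif-1α-/- kidneys.

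Hspb8 was the member that set both knockout groups apart from control. Its signal was 2.45-fold higher in Fh1-/- kidneys and 3.6-fold higher in Fh1-/-Hif-1α-/- than in control kidneys, and its second probe gave 2.11-fold and 3.26-fold. Hspa1b, an inducible Hsp70, was 2.81-fold higher in Fh1-/- kidneys by its brighter probe, with a wide spread between animals. In Fh1-/- against control, 3 of the 18 member probes were called higher and 0 lower, where 3.04% of all 23863 probes were called higher and 1.93% were called lower. In Fh1-/-Hif-1α-/- against control, 2 of 18 were called higher and 0 lower, where the shares over the whole array were 8.62% and 7.97%. Between the knockout groups 0 of 18 were called by limma, where 0.138% of all probes were called higher in Fh1-/-Hif-1α-/- kidneys and 0.0503% were called lower. At an unadjusted p under 0.05 there were 4 of 18. On the deposited values without a further shift there were also 4, beside 2132 of all 23863 probes. The median difference of the 18 probes was 0.37 in Fh1-/- kidneys and -0.16 in Fh1-/-Hif-1α-/- kidneys against control, and -0.19 between the knockout groups, beside -0.05, -0.06 and 0.00 over all probes. These medians count genes with 3 probes 3 times. With the brightest probe of each gene they were 0.37, -0.03 and -0.19, beside -0.03, -0.03 and 0.01 over all 12344 genes. Both comparisons with control share the same 4 control arrays. The plot of the members' values shows the 4 animals of each group.

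**Figure D1:**
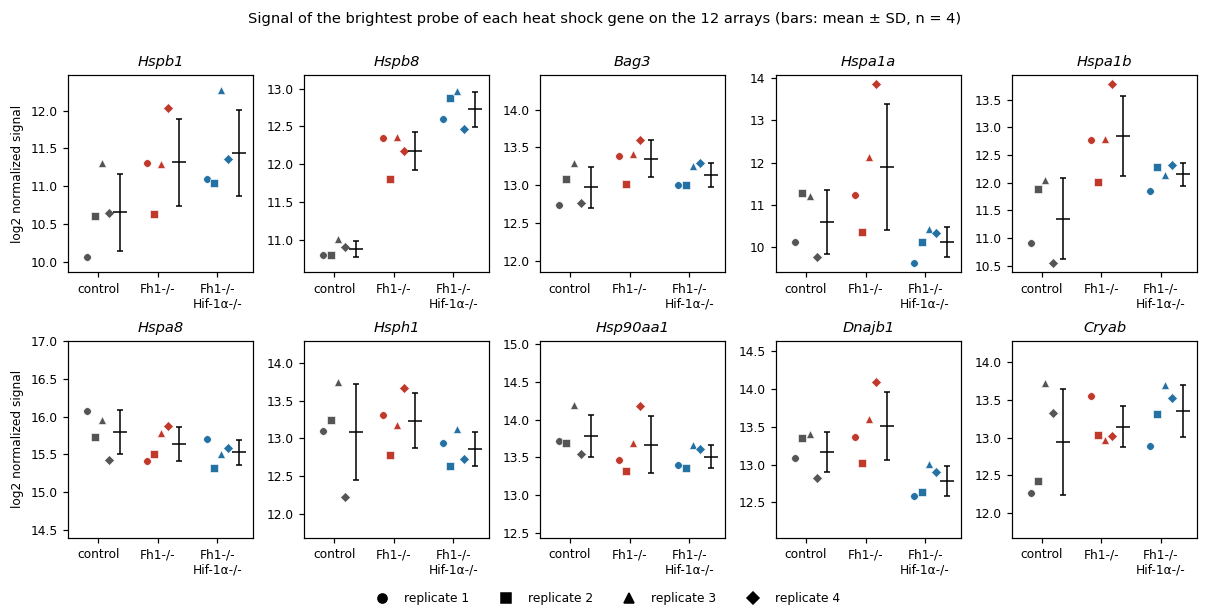
Log2 normalized signal (vertical axes, each panel with its own range) of the brightest probe of each of the 10 genes on the 12 arrays, by group (horizontal axis). Symbols stand for replicates and black bars for the mean ± SD of 4 arrays. The groups part for Hspb8, with control arrays at 10.80 to 11.01, Fh1-/- arrays at 11.81 to 12.36 and Fh1-/-Hif-1α-/- arrays at 12.47 to 12.97, and overlap with control for the other 9 genes.

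Promoter sequences of the members are shown because most of these genes are known to answer to the same factor, whose binding motif can be read in them. The RefSeq table (build GRCm38.p6) gave 9 promoters, each from 250 bases before to 50 after a transcription start, for 7 of the 10 members: Bag3, Hspa1a, Hspa1b, Hspb1 and Hspb8 with 1 each and Dnajb1 and Hsph1 with 2. Cryab, Hspa8 and Hsp90aa1 had no entry. The heat shock motif was searched on both strands as a pair of inverted 3-base units, GAANNTTC or TTCNNGAA. Each form reads the same on both strands, and they can overlap. Either form occurred in 7 of the 9 promoters, covering 6 of the 7 genes, against 15.1% of the 32851 promoters in the table. The windows around the matches follow 5′ to 3′ on the gene's strand, with the motif in capitals. A further Hsph1 window, which holds both forms, is not shown.

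Hspb8 (chr5:116422840-116422877, minus strand): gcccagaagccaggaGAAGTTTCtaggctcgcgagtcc
Hspb1 (chr5:135887787-135887844, plus strand): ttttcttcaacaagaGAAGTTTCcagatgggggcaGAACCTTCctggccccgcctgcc
Bag3 (chr7:128523610-128523632, plus strand): ctctggatgggaccaGAAGTTTC
Hspa1a (chr17:34972238-34972275, minus strand): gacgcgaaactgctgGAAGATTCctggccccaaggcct
Hspa1b (chr17:34959320-34959357, minus strand): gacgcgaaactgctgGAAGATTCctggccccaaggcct
Hsph1 (chr5:149636347-149636384, minus strand): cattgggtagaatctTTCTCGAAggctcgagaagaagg

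The matches differ in place and in letters. In Hspb8 the pair begins 2 bases after the annotated start and in Bag3 42 bases after it. In Hspa1a and Hspa1b it begins 104 bases before the start, and in Hspb1 there are matches 117 and 97 bases before it. Hsph1 has the other form, 54 and 33 bases before its annotated starts. A longer element of 3 inverted units begins 15 and 36 bases after these starts. It holds both forms of the pair and occurs in 0.603% of all promoters. The 2 Hsph1 promoters overlap, so the same Hsph1 sites are counted in both. The 8 letters of the Hspb8, Bag3 and first Hspb1 match are identical. The windows of Hspa1a and Hspa1b are letter for letter the same, and their whole promoters matched at 296 of 300 bases. Neither pair occurs in the Dnajb1 promoters. Of other motifs, the antioxidant response core TGACNNNGC was in 3 of the 9 promoters (12.4% of all), those of Hsph1 and 1 of Dnajb1, and the hypoxia response core ACGTG was in 3 (19.6% of all), again of Hsph1 and Dnajb1 and none of Hspb8. These are letter matches within short windows and say nothing of binding.

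Hspb8, also called Hsp22, is a small heat shock protein that works with Bag3 to route damaged proteins to autophagy. By its brighter probe (ILMN_2761205) the control arrays were at 10.80, 10.80, 11.01 and 10.91, the Fh1-/- arrays at 12.34, 11.81, 12.36 and 12.18, and the Fh1-/-Hif-1α-/- arrays at 12.60, 12.87, 12.97 and 12.47. Every Fh1-/- array lay above every control array, and every Fh1-/-Hif-1α-/- array above every Fh1-/- array. The difference from control was 1.29 (standard error 0.14, limma adjusted p = 0.00049) in Fh1-/- kidneys and 1.85 (standard error 0.14, adjusted p = 1.3e-05) in Fh1-/-Hif-1α-/- kidneys. An exact two-sided permutation test gave p = 0.029 for each, the smallest that 4 arrays against 4 allow. By the dimmer probe (ILMN_2944366) control arrays were at 8.21 to 8.44, Fh1-/- arrays at 9.11 to 9.65 and Fh1-/-Hif-1α-/- arrays at 9.63 to 10.25, with differences from control of 1.08 (adjusted p = 0.002) and 1.71 (adjusted p = 2.7e-05). The probes thus ordered the groups alike, although by the dimmer one the knockout groups overlapped, at 9.65 and 9.63. Hspb8 is among the 14 genes that the study picked for the Nrf2 antioxidant pathway on these same samples, so its rise is not independent of that choice.

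The step from Fh1-/- to Fh1-/-Hif-1α-/- was smaller and was not called. The difference was 0.55 (95% confidence interval 0.24 to 0.86, unadjusted p = 0.0021, adjusted p = 0.17) by the brighter Hspb8 probe and 0.63 (0.30 to 0.95, unadjusted p = 0.0012, adjusted p = 0.14) by the dimmer one. Without Fh1-/-Hif-1α-/- replicate 4, the lowest of its group by both probes, the dimmer probe gave 0.76 and passed (adjusted p = 0.047). The SD about the group means was 0.21 and 0.22, near the middle of all probes (53.1 and 55.4 percentile). Within replicates 1 and 2 alone the brighter probe gave 1.28 in Fh1-/- against control (adjusted p = 0.044), and within replicates 3 and 4 it gave 1.31 (adjusted p = 0.12).

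Markers of several cell types also differed between the groups. Of 6 principal cell markers of the collecting duct, 2 were called higher in Fh1-/- kidneys and 6 in Fh1-/-Hif-1α-/- kidneys, and the mean signal of the list went from 11.51 to 11.77 on control arrays to 12.06 to 12.40 and 12.96 to 13.19, so that these groups, as with the brighter Hspb8 probe, did not overlap. Of 8 macrophage markers 5 and 7 were called higher, with list means of 9.80 to 10.16, 10.47 to 11.13 and 10.81 to 11.13, which overlapped between the knockout groups. Of 7 fibroblast markers 3 and 3 were higher, with list means of 9.81 to 10.49, 10.57 to 10.90 and 10.56 to 11.19. Of 3 fat cell markers 0 and 2 were called higher, Adipoq (3.27, adjusted p = 0.012) and Cidec (2.17, adjusted p = 0.016), with list means of 7.36 to 8.41, 7.54 to 9.69 and 9.17 to 10.59. Of 9 proximal tubule markers 2 and 5 were lower, with list means of 13.74 to 13.88 on control, 12.95 to 13.50 on Fh1-/- and 12.77 to 13.23 on Fh1-/-Hif-1α-/- arrays. Of 5 markers of the thick ascending limb 2 and 3 were lower, among them Egf by its brighter probe (-2.39 and -3.02). The list means were 14.38 to 14.68, 13.77 to 14.11 and 13.50 to 13.76. These groups did not overlap either, in the opposite direction to Hspb8, by as little as 13.77 against 13.76. Of 3 markers of the distal convoluted tubule 2 and 3 were lower, among them Pvalb (-3.05 and -2.76), with list means of 12.91 to 13.03, 11.22 to 11.88 and 11.06 to 11.74. Of 5 intercalated cell markers 1 was higher in each group and 2 and 3 were lower, and of 4 podocyte markers 0 and 2 were lower. Of 4 red cell markers 1 and 1 were lower, in both groups Slc4a1, which is also among the intercalated cell markers. The red cell genes Hba-a1, Hbb-b2 and Alas2 were not called. Of 7 endothelial markers 1 was higher in Fh1-/- and 1 lower in Fh1-/-Hif-1α-/- kidneys. Of 5 smooth muscle markers 0 were called in either group, and of 2 skeletal muscle markers 0 and 1 were called higher. The part of all these cell types in the Hspb8 result was not tested. The genes whose brightest probe followed Hspb8 most closely over the 12 arrays were Stk39 (r = 0.99), a kinase that regulates salt transporters, Alcam (r = 0.98), a cell adhesion molecule, and Tnfrsf22 (r = 0.98). These correlations are descriptive, and the points share their groups.

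Hspb1, the mouse Hsp25, is a small heat shock protein that also steadies the actin skeleton. Control arrays were at 10.06, 10.61, 11.30 and 10.64, Fh1-/- arrays at 11.31, 10.63, 11.29 and 12.03, and Fh1-/-Hif-1α-/- arrays at 11.10, 11.04, 12.27 and 11.36. The groups overlapped through control replicate 3, the highest control, and through Fh1-/- replicate 2. The differences from control, 0.66 (95% confidence interval -0.07 to 1.39, adjusted p = 0.28) and 0.79 (0.06 to 1.52, adjusted p = 0.13), did not pass. With the array set as a block in the fit the second did (0.79, adjusted p = 0.042). Of all probes, 95.4% had a smaller spread within groups than Hspb1.

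Cryab, αB-crystallin, is the small heat shock protein of lens, muscle and renal medulla. Control arrays were at 12.27, 12.43, 13.72 and 13.33, Fh1-/- arrays at 13.55, 13.03, 12.97 and 13.02, and Fh1-/-Hif-1α-/- arrays at 12.89, 13.31, 13.69 and 13.53. The controls alone spanned the whole range of the gene. Neither difference from control passed, at 0.21 (-0.43 to 0.84, adjusted p = 0.75) and 0.41 (-0.22 to 1.05, adjusted p = 0.37). On control replicate 3, where Cryab and Hspb1 were highest among controls, the muscle oxygen store Mb was at 10.21 against 7.84 to 8.04 on the other controls, while the muscle light chain Mylpf was at 8.24 against 8.34 to 8.43. The other 5 listed muscle genes, Ckm and Acta1 among them, were not analysed here, and the part of muscle in these values was not tested.

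Bag3 ties Hsp70 to the small heat shock proteins and releases bound protein from Hsp70. Control arrays were at 12.74, 13.08, 13.30 and 12.77, Fh1-/- arrays at 13.39, 13.01, 13.41 and 13.60, and Fh1-/-Hif-1α-/- arrays at 13.00, 13.00, 13.26 and 13.29. Values for 3 of the Fh1-/- arrays lay above every control, and Fh1-/- replicate 2 lay among the controls. The difference was 0.38 in Fh1-/- kidneys (0.05 to 0.71, unadjusted p = 0.026, adjusted p = 0.16) and 0.17 in Fh1-/-Hif-1α-/- kidneys (-0.16 to 0.50, adjusted p = 0.5), so Bag3, the partner of Hspb8, was not called in either.

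Hspa1a and Hspa1b are neighbouring genes for the inducible Hsp70 and encode almost the same protein. The files hold no probe sequences, so signal from one may be counted for the other. The brighter Hspa1b probe (ILMN_2498263) was at 10.91, 11.88, 12.06 and 10.55 on control arrays, at 12.77, 12.02, 12.79 and 13.78 on Fh1-/- arrays and at 11.86, 12.28, 12.15 and 12.33 on Fh1-/-Hif-1α-/- arrays. Fh1-/- replicate 4 was the highest of all 12, and Fh1-/- replicate 2 lay just below the highest control. The difference of Fh1-/- from control was 1.49 (standard error 0.37, limma adjusted p = 0.039), while the exact permutation test gave p = 0.057. That of Fh1-/-Hif-1α-/- was 0.80 (0.00 to 1.61, adjusted p = 0.16). The second Hspa1b probe gave 0.90 (adjusted p = 0.17) and 0.15 (adjusted p = 0.82).

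The Hspa1b call in Fh1-/- kidneys was lost in 13 of 28 alternative settings, always with the same sign. Leaving out Fh1-/- replicate 4 gave 1.18 (adjusted p = 0.068), Fh1-/- replicate 1 gave 1.52 (0.096), Fh1-/- replicate 3 gave 1.51 (0.097), control replicate 1 gave 1.35 (0.13) and control replicate 4 gave 1.22 (0.068). Without Fh1-/-Hif-1α-/- replicate 2 or 4 the difference stayed at 1.49, with an adjusted p of 0.052 and 0.051. Within replicates 1 and 2 it was 1.00 (adjusted p = 0.2) and within replicates 3 and 4 it was 1.98 (adjusted p = 0.29).

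By its brightest probe (ILMN_2829594), Hspa1a varied more between animals of 1 group than 99.3% of all probes. Control arrays were at 10.12, 11.27, 11.20 and 9.75, Fh1-/- arrays at 11.22, 10.35, 12.14 and 13.86, and Fh1-/-Hif-1α-/- arrays at 9.61, 10.12, 10.41 and 10.33. The Fh1-/- arrays alone spanned 3.51 on the log2 scale, from replicate 2, within the controls, to replicate 4, far above all others. The differences were 1.31 in Fh1-/- kidneys (0.01 to 2.61, adjusted p = 0.23) and -0.47 in Fh1-/-Hif-1α-/- kidneys (-1.77 to 0.83, adjusted p = 0.64) against control, and -1.78 between the knockout groups (-3.08 to -0.48, unadjusted p = 0.011, adjusted p = 0.33). None was called. Without Fh1-/- replicate 4 the first was 0.65, its lowest value over the 12 arrays left out in turn. The dimmer Hspa1a probes gave 0.64 and 0.51 in Fh1-/- kidneys and 0.12 and -0.14 in Fh1-/-Hif-1α-/- kidneys. All 5 probes of the pair followed each other across animals, with correlations of the deviations from group means of 0.75 to 0.93 over the 10 pairs of probes.

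**Figure D2:**
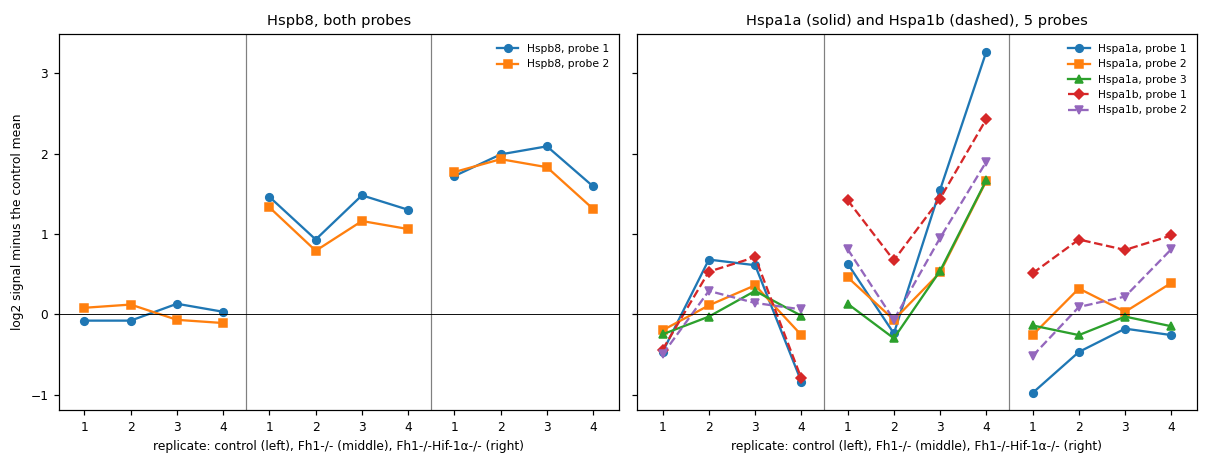
Log2 normalized signal minus the mean of the 4 control arrays (vertical axis) for the 2 probes of Hspb8 (left) and the 5 probes of Hspa1a and Hspa1b (right) on each of the 12 arrays. Lines join the values of 1 probe within a group and imply no order of the replicates. The Hspb8 probes are higher on every knockout array than on every control array, whereas the Hspa1 probes vary together from animal to animal and are highest on Fh1-/- replicate 4.

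Dnajb1, the J-domain protein that drives the ATPase of Hsp70, was at 13.09, 13.35, 13.41 and 12.83 on control arrays, at 13.36, 13.02, 13.60 and 14.09 on Fh1-/- arrays and at 12.59, 12.64, 13.01 and 12.90 on Fh1-/-Hif-1α-/- arrays. Every Fh1-/-Hif-1α-/- array lay below every Fh1-/- array, by as little as 13.01 against 13.02. That difference was -0.73 (-1.17 to -0.29, unadjusted p = 0.0034, adjusted p = 0.21), and those from control were 0.35 (adjusted p = 0.36) and -0.38 (adjusted p = 0.22), none of them called. Within replicates 1 and 2 alone the last was -0.61 (adjusted p = 0.044). Hspb8 by its brighter probe and Dnajb1 were the members whose knockout groups did not overlap, in opposite directions, where 4.85% of all probes did not. Against control the Hspb8 probes were the ones without overlap in each knockout group, 2 of 18, where 14.2% of all probes showed no overlap for Fh1-/- and 19.4% for Fh1-/-Hif-1α-/-.

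Hsph1, the Hsp110 that swaps the nucleotide of Hsp70, was at 13.10, 13.25, 13.75 and 12.23 in control, 13.31, 12.78, 13.18 and 13.67 in Fh1-/- kidneys and 12.94, 12.63, 13.13 and 12.73 in Fh1-/-Hif-1α-/- kidneys. Control replicates 3 and 4 were its highest and lowest values, and the knockout arrays lay between them. The differences were 0.15 (-0.44 to 0.74) and -0.22 (-0.81 to 0.37).

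Hspa8, the constitutive Hsc70, sat near the top of the arrays' range, where the highest deposited value was 16.59. Its brightest probe was at 15.42 to 16.07 on control, 15.41 to 15.88 on Fh1-/- and 15.32 to 15.71 on Fh1-/-Hif-1α-/- arrays. All 3 of its probes gave negative differences, from -0.26 to -0.04 in Fh1-/- kidneys and from -0.61 to -0.22 in Fh1-/-Hif-1α-/- kidneys, with none called. The lowest of these came from probe ILMN_2918479 (-0.61, -1.13 to -0.09, adjusted p = 0.1), whose Fh1-/-Hif-1α-/- arrays were at 14.01, 14.69, 14.64 and 15.44. Without replicate 4, the highest of that group, the difference was -0.86 and passed (adjusted p = 0.012). It was -1.22 within replicates 1 and 2 (adjusted p = 0.017) and 0.00 within replicates 3 and 4 (adjusted p = 0.99). Array weights gave -0.80 (adjusted p = 0.011). Another Hspa8 probe, ILMN_1249586, passed without control replicate 4 (-0.41, adjusted p = 0.03) and with array weights (-0.43, adjusted p = 0.048).

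Hsp90aa1, the inducible Hsp90, was at 13.72, 13.69, 14.19 and 13.54 in control, 13.47, 13.32, 13.69 and 14.18 in Fh1-/- kidneys and 13.40, 13.36, 13.67 and 13.61 in Fh1-/-Hif-1α-/- kidneys by its brightest probe. The highest control and the highest Fh1-/- array were level. Its 3 probes gave -0.22 to -0.02 in Fh1-/- kidneys and -0.32 to -0.19 in Fh1-/-Hif-1α-/- kidneys, all with intervals that include 0. The dimmest of them, with a mean of 7.73, lay at the 1.67 percentile of signal, close to the arrays' floor. The plot of differences sets the 18 probes side by side.

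**Figure D3:**
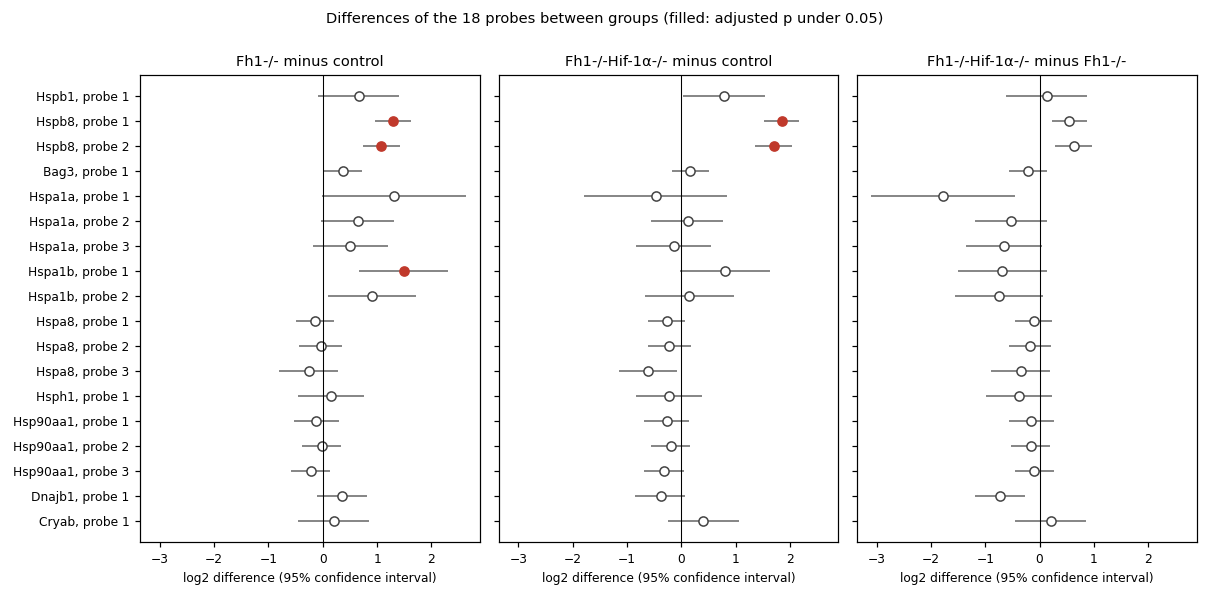
Log2 difference (horizontal axes) of each of the 18 probes, numbered within a gene from the brightest, in Fh1-/- against control, Fh1-/-Hif-1α-/- against control and Fh1-/-Hif-1α-/- against Fh1-/- kidneys. Lines are 95% confidence intervals from limma and filled points have an adjusted p under 0.05: both Hspb8 probes and 1 Hspa1b probe in the first panel, both Hspb8 probes in the second and 0 in the third.

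The members other than Hspb8, Cryab and Hspa8 stood above and below their group means on the same animals. This was seen after their values were known, and is given as a description. Over the 12 arrays the correlations of the deviations from group means, by brightest probe, ran from -0.37 to 0.97 for the 45 pairs of members, with a median of 0.61. Over all pairs of the 12344 named genes the median was 0.01. Of the 45 pairs 23 were above 0.6, which is 51.1%, against 7.17% of all pairs. Among Hspa1a, Hspa1b, Bag3, Dnajb1, Hsph1, Hsp90aa1 and Hspb1, chosen after these values were seen, the 21 pairs ran from 0.61 to 0.97. They make up most of the 23 pairs above 0.6. Pairs with Hspb8 had a median of 0.33, pairs with Cryab 0.14 and pairs with Hspa8 0.44. Of all named genes, Hspa1a and Dnajb1 were each other's nearest, by deviations from group means (r = 0.97) and by the signals of the 12 arrays (r = 0.96). Hspa1b and Bag3 were each other's nearest by the signals (r = 0.92) but not by deviations (r = 0.89). By deviations the nearest to Hspa1b were Pfn1, which binds actin (r = 0.96), Slc5a3, a carrier for the osmolyte inositol (r = 0.95), and Cct4, a subunit of the cytosolic chaperonin (r = 0.94), and the nearest to Bag3 was Mga (r = 0.92).

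The same few animals lay at the ends of this pattern. Fh1-/- replicate 4 was the highest of its group for 12 of the 18 member probes, and Fh1-/- replicate 2 the lowest for 13, where these arrays were highest and lowest for 25.4% and 24.9% of all probes. Among controls, replicate 3 was highest for 11 of 18 (24.7% of all probes) and replicate 4 lowest for 11 (30.5%). In Fh1-/-Hif-1α-/- kidneys replicate 3 was highest for 9 of 18 (25.2%) and replicate 1 lowest for 9 (23.3%). The mean over the 10 members, by brightest probe, was 13.63 on Fh1-/- replicate 4, 12.55 on Fh1-/- replicate 2, 12.99 on control replicate 3 and 12.20 on control replicate 4. Hspa1a stood 1.97 above its group mean on Fh1-/- replicate 4 and 1.54 below it on replicate 2.

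Immediate early genes, which the handling of tissue can raise, were set beside this. Their list mean was highest on Fh1-/- replicate 4 (11.12) and lowest on replicate 2 (10.18) within that group, as for the heat shock genes. Among controls the order was the other way: replicate 4, lowest in the members, had a list mean of 10.57, and replicate 3, highest in the members, 9.62. In Fh1-/-Hif-1α-/- kidneys it was also the other way, with a list mean of 10.84 on replicate 1, lowest in the members (12.57), and 10.65 on replicate 3, highest in the members (13.00). Egr1 was at 13.94 on control replicate 4 and 9.95 on control replicate 3. Of 12 measured genes of this list 3 were called higher in Fh1-/- kidneys and 5 in Fh1-/-Hif-1α-/- kidneys, among them Atf3 (1.48, adjusted p = 0.0046, and 1.59, adjusted p = 0.00098) and, by its brighter probe, Junb (1.18, adjusted p = 0.026, and 1.38, adjusted p = 0.0045), whose dimmer probe gave -0.08 and 0.06 (adjusted p = 0.78 and 0.82). Fos passed in Fh1-/-Hif-1α-/- kidneys (1.60, adjusted p = 0.017). What part handling had in the members' values was not tested.

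**Figure D4:**
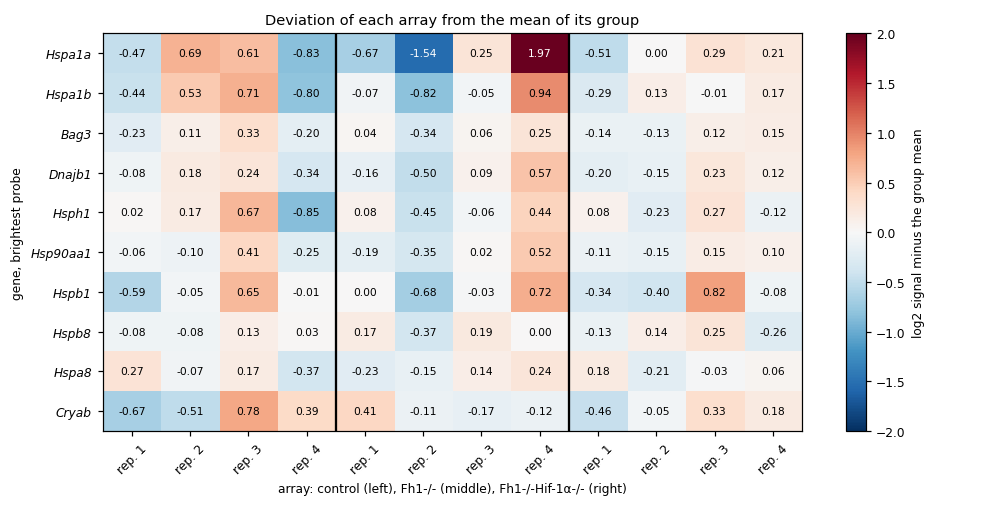
Log2 normalized signal minus the mean of the array's own group (colour and printed number) for the brightest probe of each member (rows) on the 12 arrays (columns, with lines between the groups). Fh1-/- replicate 4 is above its group mean for Hspa1a (1.97), Hspa1b (0.94), Hspb1 (0.72) and Dnajb1 (0.57), and Fh1-/- replicate 2 is below it for all 10 genes.

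The rest of the chaperone network, by brightest probe, was mostly not called, which also holds for genes at large. Of all 12344 genes, 482 were called higher and 279 lower in Fh1-/- kidneys, and 1319 and 1066 in Fh1-/-Hif-1α-/- kidneys. The factors that drive heat shock genes were read through Hsf2, Hsf4 and the inhibitor Hsbp1, with 0 of 3 called, and Hsf1 and the other cytosolic Hsp90, Hsp90ab1, were not analysed here. None was called of 3 other small heat shock proteins, 8 other Hsp70 proteins and exchange factors, 13 Hsp90 co-chaperones, 13 subunits of the cytosolic chaperonin and prefoldin, and 8 receptors and adaptors of selective autophagy, in either knockout group by limma. Of 5 further BAG proteins, Bag2, which inhibits the ubiquitin ligase partner of Hsp70, was higher by 0.94 in Fh1-/- kidneys (standard error 0.21, adjusted p = 0.024) and by 0.93 in Fh1-/-Hif-1α-/- kidneys (adjusted p = 0.0098). Its control arrays were at 9.42, 9.20, 9.34 and 9.11, below its Fh1-/- arrays at 10.63, 9.94, 10.36 and 9.91 and its Fh1-/-Hif-1α-/- arrays at 10.47, 10.61, 10.03 and 9.71. Of 9 further J-domain proteins, Dnajc5, a chaperone of secretory vesicles, was higher by 0.38 (adjusted p = 0.027) and 0.45 (adjusted p = 0.0049), and Dnajc8 by 0.51 in Fh1-/-Hif-1α-/- kidneys (adjusted p = 0.013), where its dimmer probe gave 0.37 (adjusted p = 0.084).

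Among chaperones of the mitochondrion some were lower. Of 9 measured, Trap1, the mitochondrial Hsp90, was lower by limma in both knockout groups, with -0.42 (adjusted p = 0.042) without Fh1 and -0.44 (adjusted p = 0.015) without Fh1 and Hif-1α. In the latter group so were the chaperonin Hspd1 (-0.42, adjusted p = 0.034) and its lid Hspe1 (-0.39, adjusted p = 0.038). None was higher. The median of the 9 was -0.22 and -0.27, against -0.03 in both comparisons over all 12344 genes. Of 6 genes listed for osmoprotection or for transport of water and urea, Slc5a3 was higher in Fh1-/- kidneys (0.77, adjusted p = 0.049). The urea transporter Slc14a2 (-2.41 and -2.42) and the water channel Aqp1 (-0.36 and -0.31) were lower in both knockout groups by their brightest probes. The other Aqp1 probes were not called, at -0.13 and 0.01 without Fh1 and at -0.07 and -0.02 without both Fh1 and Hif-1α, and the other Slc14a2 probes were at -1.14 and -0.68 (adjusted p = 0.05 and 0.31) and at -0.79 and 0.08 (adjusted p = 0.094 and 0.91). Slc5a3 was at 10.09 on Fh1-/- replicate 4 and 8.43 on control replicate 4, the arrays that were highest and lowest for Hspa1b. In Fh1-/-Hif-1α-/- kidneys it differed from control by 0.10 (adjusted p = 0.78).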

How the data were processed

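RNA of 12 kidneys was measured. By their methods, the authors read out the BeadChips in GenomeStudio, then used GeneSpring GX to scale each array by its 75th percentile and to set the samples' median as baseline. The deposited table holds 1 normalized log2 value per probe and array, which is not centred on 0. How its 23863 probes were chosen from the 45281 of the full table is not given in the sources used here. A second table of signals that were not normalized was not used, because the names of its 24 columns match no sample. Signal over background is therefore unknown, and precision is limited by how few arrays there were.

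Groups follow the genotype given by the labels. Each array was shifted to the mean of the 75th percentiles (by at most 0.0397), and the 3 groups were fitted together by limma 3.58.1 under R 4.3.3 (moderated variance with a trend on signal), with Benjamini-Hochberg adjustment over all probes and calls at an adjusted p under 0.05 without a fold minimum. Exact two-sided permutation tests ran over the 70 arrangements of 4 arrays against 4. A gene was represented by its brightest probe for lists and correlations. Symbols came from the platform's annotation, with 1 symbol for 19906 probes. Promoters came from RefSeq (GRCm38.p6). No list was tested as a set.

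The members, the other gene lists and the tests were chosen with earlier results of these data known. Named genes were the members, up to 3 called genes of each other list, Hsf1 and Hsp90ab1, the targeted genes and the genes most like a member. Egr1, Mb, Mylpf, Hsf2, Hsf4 and Hsbp1, and Slc5a3 beside Hspa1b, were named after their values were seen. Alternatives were quantile normalization, no further shift, equal medians, eBayes without a trend, no moderated variance, array weights (statmod 1.5.0), only the groups compared, leaving out the dimmest 25% of probes, the replicate number as a block, the array set as a block or each set alone, Xist as a covariate, 1 probe per gene, a fold of at least 2, an adjusted p under 0.01, and each array left out. The fit was tested on simulated data. Plots were drawn with matplotlib 3.10.9 in Python 3.11.15.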

Additional observations from a re-analysis of the deposited data

Results flagged for a closer look

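Of the 54 groups of 4 values (18 probes in 3 groups), 2 held a value far from the other 3, where chance alone flags about 1 in 20 groups. Hsp90aa1 by its second probe (ILMN_2752883) was at 13.42 on Fh1-/- replicate 4, with the other Fh1-/- arrays at 12.80 to 12.90, and its gap to the nearest was 0.844 of the group's range. This is the array on which 12 of the 18 member probes were highest in the group. Cryab was at 13.55 on Fh1-/- replicate 1, with the others at 12.97 to 13.03, a gap of 0.901 of the range. The other members did not stand out on that array.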

How the results depend on the processing

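The Hspb8 calls held in 27 of 28 settings by the brighter and 25 of 27 by the dimmer probe in Fh1-/-, and in all 28 and 27 run in Fh1-/-Hif-1α-/- kidneys. The exceptions were fits within 1 array set, with the brighter probe at 1.31 (adjusted p = 0.12) in replicates 3 and 4 and the dimmer at 0.96 (0.077) and 1.20 (0.13). Hspa1b lost its call in 13 of 28. The cause of the changes given here was not tested, beyond the fewer arrays of each set and the stricter thresholds. Array weights called 2 Hspa8 probes lower in Fh1-/-Hif-1α-/- kidneys (-0.43 and -0.80).

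Replicate numbers did not pair the animals: deviations of same-numbered arrays correlated between -0.309 and 0.499, over 0.1 in 6 of 12 pairs. With the number as a replicate block 2, 2 and 0 member probes were called in Fh1-/- against control, Fh1-/-Hif-1α-/- against control and between the knockout groups, and 1346, 4360 and 31 of all probes. Hspa1b then had an adjusted p of 0.063.

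Against 3 member probes in Fh1-/-, 1 was called within replicates 1 and 2 and 0 within 3 and 4. Against 2 in Fh1-/-Hif-1α-/-, array weights and replicates 1 and 2 alone gave 4, and 1 probe per gene gave 1. Leaving out each array gave 2 to 3, 2 to 3 and 0 to 1 in the 3 comparisons. Of all probes, against 1187 in Fh1-/-, there were 753 without moderated variance, 3432 with array weights, 265 and 56 within the sets, 276 with a fold of at least 2, 322 at an adjusted p under 0.01 and 448 to 1413 with an array left out. Against 3959 in Fh1-/-Hif-1α-/-, there were 6709 with array weights, 280 within replicates 3 and 4, 2586 with 1 probe per gene, 797 with the fold, 1587 at the stricter p and 2289 to 4324 with an array left out. Against 45 between the knockout groups, there were 9 without moderated variance, 71 with array weights, 29 with those groups alone, 79 with the array set as a block, 0 within replicates 3 and 4, 120 with Xist, 26 with the fold, 10 at the stricter p and 11 to 60 with an array left out.

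Signs changed in 36 of 1482 single values, none of which passed under either setting. In Fh1-/- against control, quantile normalization gave 0.09 and 0.17 for Hspa8 and 0.03 for Hsp90aa1, which no further shift put at 0.02. Within replicates 3 and 4 Hspa8 was at 0.14 and 0.32, Hsp90aa1 at 0.07 and 0.04 and Cryab at -0.53. Within replicates 1 and 2 Hsph1 was at -0.13 and Dnajb1 at -0.03. With Xist as a covariate Hspa8 was at 0.02 and Hsp90aa1 at 0.00. In Fh1-/-Hif-1α-/- against control, Hspa1b by its dimmer probe was at -0.11 within replicates 1 and 2, and Hspa8 at 0.05 and 0.00 within 3 and 4. Between the knockout groups, Hspa8 was at 0.06 and 0.05 within a set, Hsp90aa1 at 0.01 with array weights and 0.09 within replicates 1 and 2, and Cryab there at -0.19. With an array left out, values that changed sign ranged from -0.24 to 0.09 for Hspa8, -0.13 to 0.38 for Hsph1, -0.29 to 0.02 and -0.16 to 0.10 for Hsp90aa1 and -0.02 to 0.47 for Cryab in Fh1-/-, from -0.07 to 0.38 for Hspa1b in Fh1-/-Hif-1α-/-, and between the knockout groups from -0.15 to 0.37 for Hspb1 and -0.27 to 0.02 and -0.19 to 0.06 for Hsp90aa1.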
